A study of Mus musculus with 18 samples.

Results

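Long-term and short-term hematopoietic stem cells (LT-HSC and ST-HSC) of the mouse fetal liver were compared gene by gene. The comparison rests on 6 of the 18 arrays of the series: FL LT-HSC a, b and c against FL ST-HSC a, b and c, taken by their titles. FL stands for fetal liver and BM for bone marrow. Fetal cells came from E13.5 embryos and the adult cells, used here as a second pair of groups, from the marrow of mice aged 3 to 12 months, all of the strain C57Bl/6J. No genotype or treatment separates the groups by title, source name or cell type. From each tissue LT-HSC, ST-HSC and multipotent progenitors (MPP) had been sorted by Cd150 and Cd48 within the Lin- Sca-1+ Kit+ fraction. The sources used here do not give the exact gates or the number of embryos behind an array. RNA was measured on Affymetrix Clariom S arrays, and each value is a log2 signal, so a difference of 1 is a 2-fold change. A positive difference means a higher signal in LT-HSC.

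LT-HSC sit at the top of blood formation and can rebuild all lineages for the life of a recipient, whereas ST-HSC do so for a limited time. At the stage sampled the fetal liver is the main blood-forming organ and its stem cells divide, unlike most of their adult counterparts. Cells leaving the LT-HSC state begin to transcribe genes of the lymphoid and myeloid lineages at low levels, known as lineage priming, and a part of the LT-HSC compartment carries transcripts of megakaryocytes, the parents of platelets.

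The arrays were alike in level and differed in a few ways that touch the results. Medians of the 6 arrays lay between 7.70 and 7.73. Array pairs of the same population correlated over genes at 0.979 to 0.991 and pairs of different populations at 0.975 to 0.988. FL LT-HSC b had a narrow spread, with an interquartile range of 2.71 against 3.02 to 3.18 in the other 5. FL LT-HSC c stood apart in liver transcripts: Alb, the albumin of hepatocytes, was at 8.70, 8.82 and 11.79 in LT-HSC a, b and c and at 9.92, 10.95 and 7.77 in ST-HSC a, b and c. The free-text descriptions of the samples name a guide against Ezh2 for FL LT-HSC a and FL ST-HSC a and a luciferase guide for the other 4. These descriptions also speak of transplanted marrow, and they go against the titles. Of the groups used beside the 6 arrays, FL MPP a and b are described with the Ezh2 guide. FL MPP c and all BM arrays are described with the luciferase guide. Ezh2 itself was at 10.63, 10.83 and 10.68 in LT-HSC and 10.56, 10.74 and 10.54 in ST-HSC, with no gap between the arrays of either description. These are transcript levels only, and which description is right was not tested. The sample codes of FL ST-HSC b and c alone carry a letter B. Among the adult arrays BM LT-HSC c stood apart, with a mean of 12.43 over 13 late neutrophil genes against 10.86 and 11.04 in the other 2 BM LT-HSC arrays. The total count of calls is also given without FL LT-HSC b, without BM LT-HSC c and without FL LT-HSC a and FL ST-HSC a.

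The transcript of the main sort marker separated the populations as labelled. Slamf1, which encodes Cd150, was at 9.12, 9.47 and 9.35 in LT-HSC and at 7.43, 7.44 and 7.60 in ST-HSC, and the groups did not overlap. This difference of 1.82 ± 0.18 (log2 ± SE, 3.54-fold) reflects the gate and is a check of the labels rather than a result. Cd48 was at 9.79, 9.99 and 9.57 in LT-HSC and at 9.97, 10.01 and 9.90 in ST-HSC, against a mean of 12.35 in FL MPP, so that neither stem cell population carried the level of MPP. Kit, the stem cell factor receptor, was at 13.18 to 13.29 in LT-HSC and 13.17 to 13.37 in ST-HSC. Cd34, a sialomucin of progenitors, had a difference of -0.33 ± 0.13 that did not pass the test (limma, adjusted p = 0.439). The Y-linked genes Kdm5d, Uty and Eif2s3y did not pass either, with differences of -0.04, -0.40 and -0.21.

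Over all 19505 genes the populations differed at 109, which is 0.559% of the genes tested (limma, Benjamini-Hochberg adjusted p under 0.05, named as called). Of these, 18 genes (0.0923%) were higher in LT-HSC and 91 genes (0.467%) were lower. The genes higher in LT-HSC included 5 genes of megakaryocytes and platelets and differed by 0.51 to 1.82, with a median of 0.88. The genes lower in LT-HSC included lymphoid, granulocyte and interferon genes and reached -3.40, with a median of -1.07. No gene called higher differed by 2 or more, against 8 called lower. For each of the 109 genes the 3 arrays of one population all lay above the 3 of the other, a separation that 8.75% of all genes showed with LT-HSC above and 6.75% with LT-HSC below. At an unadjusted p under 0.05 (limma), which 8.76% of all genes reached, the directions were close to even, with 826 genes higher and 882 lower. The median over all genes was 0.02. Nothing in the labels says that arrays a, b and c came from separate embryos, so the p-values speak only of how far these arrays spread, which may be technical error. In RNA of sorted populations fewer cells that carry a transcript and less of it per cell cannot be told apart.

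**Figure D1:**
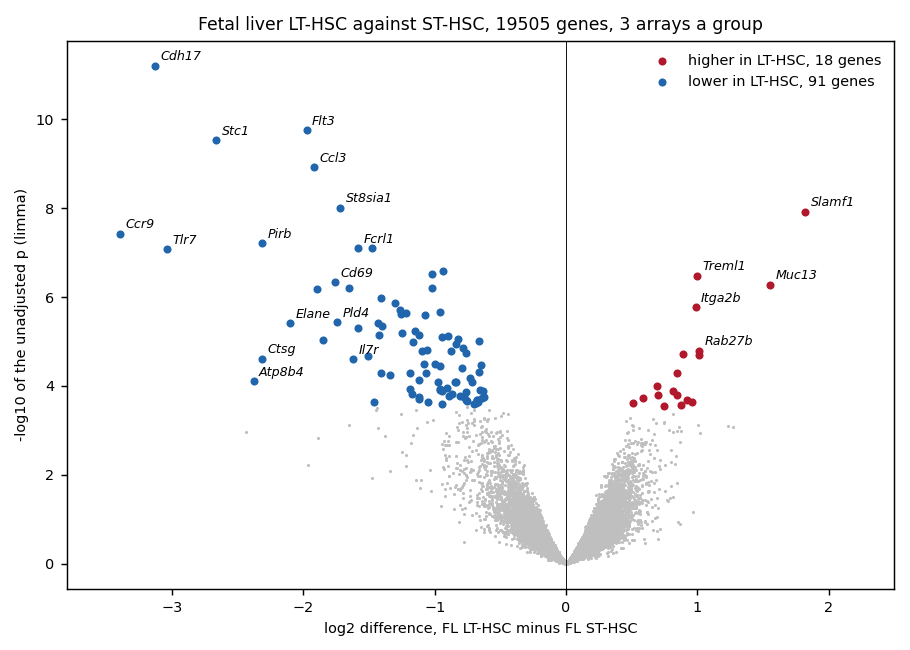
Each point is a gene, with the log2 difference of FL LT-HSC minus FL ST-HSC on the horizontal axis and -log10 of the unadjusted p from limma on the vertical axis; coloured points have an adjusted p under 0.05. The 91 genes lower in LT-HSC reach -3.40 for Ccr9, while the 18 higher genes end at 1.82 for Slamf1.

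The count of calls depended on single arrays. Leaving out FL LT-HSC b left 58 calls, FL ST-HSC a 63, FL ST-HSC c 66 and FL ST-HSC b 68, each a fit with fewer arrays, while leaving out BM LT-HSC c, which enters through the shared estimate of the spread, gave 232. Without FL LT-HSC a and FL ST-HSC a, the arrays of this comparison described with the Ezh2 guide, 45 genes were called. FL MPP a and b, also described with it, stayed in this fit. Without FL ST-HSC b and c, which leaves a single ST-HSC array, 20 were called. Of the 109 genes, 46 were called in every fit without 1 of the 6 arrays, among them Slamf1, Muc13, Treml1, Itga2b, Ccr9, Cdh17, Tlr7, Stc1, Flt3, Elane and Ccl3. Other calls were less stable to leaving out 1 of the 6 arrays: Slamf6, Wfdc17, Kcnj5, Tuba8, Flg2 and Zfp334 were called in none of these fits, Thbs1, Apoe, Gfi1b, Pdgfrb, Ccl4, Bcl2l11, Sting1, Mzb1, Tmsb4x, Gm15448 and Vmn1r72 in 1, and Postn, Atp8b4, H2-Oa, Brinp1 and Erich6 in 2. Irf7 was called in 3 of the 6 fits, Il7r, Pf4, Sardh and Slc7a8 in 4, and Ctsg, Rab27b and Oasl1 in 5. None of the 109 changed sign in any of the 27 alternatives. Where arrays were only left out or reweighted this was fixed in advance, since the populations did not overlap at any of the 109.

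Several genes of megakaryocytes and platelets were higher in LT-HSC. Of 25 measured members of the list, 5 were called higher and none lower, against 0.0923% and 0.467% of all genes. The 5 were Rab27b, Treml1, Itga2b, Thbs1 and Pf4. In 16 of the 25 the LT-HSC arrays all lay above the ST-HSC arrays (8.75% of all genes did), and in none below. The list's median was 0.49, against 0.02 for all genes, and 0.49 and 0.56 with each array centred and with quantile normalization. The mean over the list was 8.62 to 8.80 in the LT-HSC arrays and 8.08 to 8.24 in the ST-HSC arrays, so that the populations did not overlap.

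Itga2b, the alpha IIb subunit (CD41) of the platelet fibrinogen receptor, was at 9.60, 9.88 and 9.60 in LT-HSC a, b and c and at 8.77, 8.50 and 8.86 in ST-HSC a, b and c. It rose by 0.99 ± 0.14 (1.98-fold, limma, adjusted p = 0.00149). All 3 LT-HSC arrays lay well above the highest ST-HSC array. Treml1, a receptor stored in platelet granules, was at 8.94, 9.03 and 8.77 against 7.95, 8.06 and 7.74, a difference of 0.99 ± 0.13 (adjusted p = 0.000455). Pf4, the chemokine platelet factor 4, was at 9.52, 9.58 and 9.92 against 8.98, 8.93 and 8.58, a difference of 0.84 ± 0.16 (adjusted p = 0.0158). LT-HSC b, the array of narrow spread, was above LT-HSC a in each of these genes.

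Rab27b, a small GTPase of granule release in platelets, differed by 1.01 ± 0.17 (adjusted p = 0.00657), with LT-HSC at 9.30 to 9.67 and ST-HSC at 8.42 to 8.57. Thbs1, the granule protein thrombospondin 1, was at 7.67, 7.92 and 8.56 against 6.71, 7.19 and 7.36. Its difference of 0.96 ± 0.21 passed narrowly (adjusted p = 0.0445), with LT-HSC c far above LT-HSC a and b. Cavin2 had as large a difference, 1.02 ± 0.26, and Itgb3, the beta 3 partner of Itga2b, 0.86 ± 0.21, but neither passed (adjusted p = 0.123 and 0.106). F2r and Clu, at 0.62 ± 0.16 and 0.78 ± 0.20, and Vwf, at 0.55 ± 0.20, did not pass either although their populations did not overlap. Ppbp and Nfe2, by contrast, were at -0.14 and 0.13.

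The count of the megakaryocyte list moved with single arrays. It was 3 of 25 without FL LT-HSC b and 8 of 25 without BM LT-HSC c. Over all genes the calls higher in LT-HSC went from 18 to 6 and 36 in these fits. Erythroid genes, whose lineage shares its progenitor with megakaryocytes, had a median of 0.43 over 23 members. None of the 23 was called and 2 were higher at an unadjusted p under 0.05 (limma), which 8.76% of all genes reached. Their list mean was 9.18, 8.06 and 9.93 in LT-HSC a, b and c and 8.72, 9.23 and 8.17 in ST-HSC a, b and c. These ranges overlapped, with the lowest and the highest value both in LT-HSC. Array b was low and array c high in erythroid genes, while the megakaryocyte list was at 8.66 and 8.80 in them, and the part of erythroid transcripts in the megakaryocyte result was not tested.

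The upstream windows of Itga2b and Pf4 are shown because both genes belong to this group and share a motif. Both windows are the 250 bases before the annotated gene start, from RefSeq on GRCm38.p6, written 5′ to 3′ along the gene; Itga2b lies at chr11:102469884-102470133 on the minus strand and Pf4 at chr5:90772185-90772434 on the plus strand. Capitals mark matches to GAGGAAG, an ETS motif with the flank preferred by PU.1, on either strand.
Itga2b: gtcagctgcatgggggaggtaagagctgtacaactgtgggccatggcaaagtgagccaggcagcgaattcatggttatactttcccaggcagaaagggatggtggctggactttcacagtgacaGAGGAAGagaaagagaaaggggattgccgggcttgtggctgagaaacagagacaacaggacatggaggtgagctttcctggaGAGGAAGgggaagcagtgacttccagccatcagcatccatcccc
Pf4: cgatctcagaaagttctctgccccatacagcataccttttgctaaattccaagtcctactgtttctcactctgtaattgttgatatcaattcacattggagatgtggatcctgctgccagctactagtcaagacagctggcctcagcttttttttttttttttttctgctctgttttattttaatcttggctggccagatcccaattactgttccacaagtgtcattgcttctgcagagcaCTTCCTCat
The motif begins 126 and 44 bases before the start of Itga2b, and 9 bases before that of Pf4 in the reverse orientation. It was found in 4 of the 16 windows available for the 18 genes higher in LT-HSC (25%), against 10.4% of the windows of all 27025 genes in the table. That table holds more genes than the 19505 tested, so these shares are over unlike sets. The GATA motif AGATAA was in 2 of the 16 (12.5%, against 10.3% of all) and the RUNX motif TGTGGT in 1 (6.25%, against 14.2%). A match describes the letters of a window and nothing more, and no matches of different motifs overlapped in the windows printed.

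**Figure D2:**
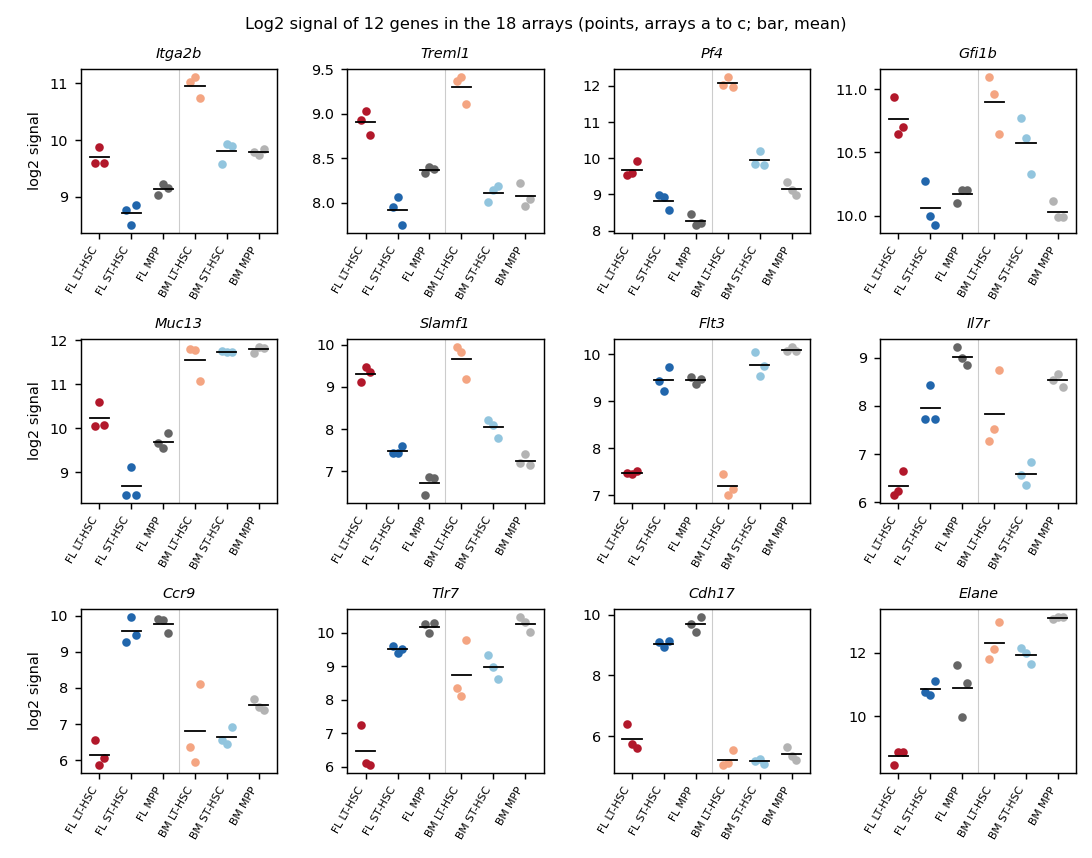
The panels plot the log2 signal of 12 genes in the 18 arrays, by population and tissue, with points for arrays a to c and a bar for the mean. Within fetal liver the LT-HSC and ST-HSC points do not overlap in any panel, and in bone marrow the array BM LT-HSC c lies above BM LT-HSC a and b for Il7r, Ccr9, Tlr7 and Elane.

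The other genes higher in LT-HSC belonged to no single list. Muc13, a transmembrane mucin of epithelia and blood progenitors, was at 10.05, 10.60 and 10.08 in LT-HSC and at 8.48, 9.11 and 8.48 in ST-HSC. Its difference of 1.55 ± 0.20 (2.93-fold, limma, adjusted p = 0.000642) was the largest after Slamf1. In both populations array b was the highest, by about the same step. Gfi1b, a transcriptional repressor needed for the erythroid and megakaryocyte lineages, was at 10.94, 10.65 and 10.70 against 10.27, 9.99 and 9.92, a difference of 0.70 ± 0.15 (adjusted p = 0.0367). Apoe, a lipoprotein component, rose by 0.82 ± 0.17 (adjusted p = 0.0318, or 0.19 without FL LT-HSC b), with LT-HSC at 10.59 or above and ST-HSC at 9.75 to 10.03. Apoe also belongs to the hepatocyte and macrophage lists, but LT-HSC c, the array with the most Alb, was at 10.63 and was not the highest LT-HSC array; the part of liver transcripts in this result was not tested.

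Further genes called higher were Sardh, the mitochondrial sarcosine dehydrogenase, by 1.01, the amino acid transporter Slc7a8 by 0.89, the potassium channel Kcnj5 by 0.88, the alpha tubulin Tuba8 by 0.75, Brinp1 by 0.92 and Erich6 by 0.84. The last 3 of the 18, Vmn1r72, Flg2 and Zfp334, differed by 0.69, 0.59 and 0.51, and Vmn1r72 and Flg2 were dim, with means of 5.40 and 6.00 in LT-HSC. They complete the 18. Brinp1, at 5.75 to 6.51 against 4.85 to 5.58, and Erich6, at 5.91 to 6.42 against 4.90 to 5.58, were likewise dim.

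Of 30 measured surface and reporter genes used to find LT-HSC only Slamf1, the gate itself, was called, and the median was 0.12. Fgd5, a reporter gene of adult LT-HSC, was at 10.61 to 10.65 in LT-HSC and 10.49 to 10.76 in ST-HSC, and Esam, an adhesion molecule, differed by 0.10 ± 0.15. Procr (EPCR) was at 7.08, 7.59 and 6.84 against 7.11, 8.15 and 7.47, and Pdzk1ip1 at 11.13, 10.95 and 10.72 against 10.90, 10.18 and 10.30, so both overlapped. Ltb and Ramp2 had the lowest values of the list, at -0.62 ± 0.17 and -0.52 ± 0.16, without passing (adjusted p = 0.158 and 0.29).

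Among 32 stem cell transcription factors Gfi1b was the only called gene, and the median was -0.01. Without FL LT-HSC b none was called, with Gfi1b at an adjusted p of 0.0747 (limma), and without BM LT-HSC c 2 were. Mecom, a regulator of LT-HSC, was at 10.78, 10.87 and 11.45 in LT-HSC and 10.60, 11.14 and 11.29 in ST-HSC, and Runx1, Erg and Meis1 differed by 0.02 ± 0.16, 0.01 ± 0.19 and 0.11 ± 0.24. Hlf, high in stem cells, had a difference of -0.29 ± 0.21. Gata2 was at 10.83, 10.70 and 11.14 against 9.92, 10.10 and 10.39, without overlap, but its difference of 0.75 ± 0.30 did not pass (adjusted p = 0.477). Tal1, at 0.38 ± 0.14, did not pass either (adjusted p = 0.395). These values bound each difference by its error and do not show that the levels are equal.

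No cell cycle gene was called. None of 44 measured S phase genes reached an unadjusted p under 0.05 (limma), which 8.76% of all genes did in either direction. Their differences ran from -0.19 for Cdca7 to 0.22 for E2f8. Of 56 genes of G2 and mitosis none was called and 2 were higher at an unadjusted p under 0.05, with a median of 0.15. Of the 56 differences 44 were above 0, as were 53.8% of all genes. In 5 LT-HSC lay above ST-HSC without overlap (8.75% of all genes did), in none below. The list means overlapped, at 10.05 to 10.25 in LT-HSC and 9.90 to 10.24 in ST-HSC. Mki67, the proliferation antigen, differed by 0.27 ± 0.18, and Top2a by 0.29 ± 0.20. Of 19 imprinted genes none was called either (limma). At an unadjusted p under 0.05 (limma) 3 were higher and 1 lower, against the same 8.76% of all genes. Igf2 was at 11.99, 11.61 and 11.96 against 12.17, 11.94 and 12.23, and Igf2r had a difference of -1.11 ± 0.43 (adjusted p = 0.456) with LT-HSC c, at 9.75, inside the range of ST-HSC.

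Several genes of early lymphoid cells were lower in LT-HSC. Of 20 measured members of the lymphoid priming list 5 were called lower and none higher, against 0.467% and 0.0923% of all genes. The 5 were Ccr9, Flt3, Il7r, Satb1 and Wfdc17. In 14 of 20 the LT-HSC arrays all lay below the ST-HSC arrays, against 6.75% of all genes, and the median was -0.40. The list mean was 8.50 to 8.69 in LT-HSC and 9.26 to 9.37 in ST-HSC. The count was 3 without FL LT-HSC b and 7 without BM LT-HSC c, while calls lower over all genes went from 91 to 52 and 196.

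Ccr9, the chemokine receptor that guides progenitors to the thymus, had the largest difference of all genes. It was at 6.56, 5.87 and 6.05 in LT-HSC a, b and c and at 9.26, 9.97 and 9.45 in ST-HSC a, b and c, a difference of -3.40 ± 0.37 (10.5-fold, limma, adjusted p = 0.000105). Folds are as measured: the deposited values carry no detection call, so for genes dim in LT-HSC, such as Ccr9, Cdh17 and Tlr7, background may make the fold too small. The ST-HSC level lay near the mean of 9.77 in FL MPP. Flt3, the receptor of multipotent and lymphoid-primed progenitors, was at 7.47, 7.46 and 7.51 against 9.42, 9.22 and 9.72. The LT-HSC arrays lay almost at the same value, and the difference was -1.98 ± 0.15 (3.93-fold, adjusted p = 1.69e-06). The mean of Flt3 in FL MPP was 9.46, the level of ST-HSC.

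Il7r, the interleukin 7 receptor of lymphoid progenitors, was at 6.15, 6.23 and 6.64 in LT-HSC and at 7.72, 8.43 and 7.74 in ST-HSC. Its difference was -1.62 ± 0.29 (3.08-fold, adjusted p = 0.00892), and the mean in FL MPP was 9.03, above every ST-HSC array. Satb1, a chromatin organiser of lymphoid cells, was at 9.41, 8.86 and 9.16 against 10.19, 10.18 and 10.30, a difference of -1.08 ± 0.16 (adjusted p = 0.00183). Wfdc17 was at 8.42 to 8.65 against 9.38 to 9.59, with a mean of 8.62 in FL MPP. Lax1, an adaptor of lymphocyte receptors, at -1.18 ± 0.32, and Notch1, at -0.56 ± 0.17, did not pass (adjusted p = 0.162 and 0.235). Dntt, the DNA polymerase of antigen receptor joining, was dim throughout, at 4.95 to 5.52 in LT-HSC and 4.79 to 5.10 in ST-HSC.

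Single members of related lists fell as well. Bank1, a B cell scaffold, was at 9.95, 9.30 and 9.41 against 10.82, 11.09 and 11.06, a difference of -1.43 ± 0.22 (2.70-fold, adjusted p = 0.0025), and was the only called gene of 16 on the B cell list. Ebf1 and Pax5, the factors of B cell commitment, differed by -0.72 ± 0.21 and -0.29 ± 0.28 (adjusted p = 0.206 and 0.796). Of 24 T and NK cell genes none was called. At an unadjusted p under 0.05 (limma) 1 was higher and 3 lower, against 8.76% of all genes in either direction. Within the SLAM receptors Slamf6 and Ly9 fell, with differences of -1.46 ± 0.32 and -0.96 ± 0.14 (adjusted p = 0.0443 and 0.00177), opposite to Slamf1. Ly9 stayed called in each fit without 1 of the 6 arrays, whereas Slamf6 lost its call in all of them. Among 33 cytokine receptors Flt3 and Il7r alone were called (1 of them without FL LT-HSC b), and Csf1r, the receptor of macrophage growth factor, was at 7.30, 6.81 and 7.25 against 8.42, 8.35 and 8.37, just short of the threshold (adjusted p = 0.069).

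Of 33 measured genes of granulocyte and monocyte priming 3 were called lower in LT-HSC and none higher, against 0.467% and 0.0923% of all genes. The 3 were the granule proteases Ctsg and Elane, and Plac8, and the median of the list was -0.41. In 15 of the 33 LT-HSC lay below ST-HSC without overlap (6.75% of all genes did) and in 2, Irf8 and Cebpb, above. The list mean was 8.32 to 8.34 in LT-HSC and 8.89 to 8.97 in ST-HSC. The count stayed 3 without FL LT-HSC b and was 11 without BM LT-HSC c. Calls lower over all genes went from 91 to 52 and 196 in these fits.

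Elane, the neutrophil elastase, was at 8.47, 8.87 and 8.90 in LT-HSC and at 10.76, 10.68 and 11.11 in ST-HSC, a difference of -2.10 ± 0.32 (4.29-fold, limma, adjusted p = 0.0025). Ctsg, cathepsin G of the same granules, was at 6.46, 6.61 and 6.46 against 8.66, 8.59 and 9.22, a difference of -2.31 ± 0.41 (4.97-fold, adjusted p = 0.00892). ST-HSC c was the highest array for both genes. Prtn3 and Mpo, further proteins of these granules, had small differences of -0.45 ± 0.23 and -0.39 ± 0.20 and did not pass, although their populations did not overlap. Mpo was already at 12.09 to 12.19 in LT-HSC.

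Plac8, a small cysteine-rich protein of myeloid and lymphoid cells, was at 10.34, 10.65 and 10.62 against 11.80, 11.80 and 11.80, a difference of -1.26 ± 0.18 (2.40-fold, adjusted p = 0.00163). Ms4a3, a membrane protein of granulocyte progenitors, and Fcgr3, an IgG receptor, had differences of -1.89 ± 0.50 and -1.38 ± 0.36 that did not pass (adjusted p = 0.141 and 0.135). Values of regulators of the lineage were closer together: Spi1 (PU.1) was at 11.69, 11.54 and 11.60 against 12.01, 11.44 and 11.95, and Cebpa, Gfi1 and Irf8 differed by -0.04, -0.04 and 0.17. Of 13 late neutrophil genes none was called and 2 were lower at an unadjusted p under 0.05 (limma), which 8.76% of all genes reached. Their list mean was 6.57, 6.63 and 7.40 in LT-HSC and 6.92, 6.99 and 7.13 in ST-HSC. S100a8, a cytosolic neutrophil protein, had a difference of -1.48 ± 0.53 (adjusted p = 0.382). Serpinb1a, an inhibitor of elastase and cathepsin G that is on no list, fell as well, at 8.77, 8.66 and 8.23 against 10.07, 10.0 and 9.87 (adjusted p = 0.00394).

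Elane and Ctsg are the granule genes with the largest differences, and Fcrl1, an Fc receptor-like gene of B cells, also fell (a difference of -1.58). Their upstream windows are shown with the same motifs in capitals. They are the 250 bases before each gene start, from RefSeq on GRCm38.p6, for Elane at chr10:79886062-79886311 on the plus strand, Ctsg at chr14:56102575-56102824 on the minus strand and Fcrl1 at chr3:87376137-87376386 on the plus strand.
Elane: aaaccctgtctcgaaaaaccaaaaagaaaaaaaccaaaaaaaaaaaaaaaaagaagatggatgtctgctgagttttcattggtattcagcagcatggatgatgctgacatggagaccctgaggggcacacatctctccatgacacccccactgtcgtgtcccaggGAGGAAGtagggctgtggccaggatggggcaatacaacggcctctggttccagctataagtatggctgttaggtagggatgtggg
Ctsg: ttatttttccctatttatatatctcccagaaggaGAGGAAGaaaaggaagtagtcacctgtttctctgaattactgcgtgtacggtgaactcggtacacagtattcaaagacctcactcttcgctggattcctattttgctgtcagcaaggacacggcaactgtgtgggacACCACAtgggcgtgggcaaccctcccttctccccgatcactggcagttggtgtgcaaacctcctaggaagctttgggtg
Fcrl1: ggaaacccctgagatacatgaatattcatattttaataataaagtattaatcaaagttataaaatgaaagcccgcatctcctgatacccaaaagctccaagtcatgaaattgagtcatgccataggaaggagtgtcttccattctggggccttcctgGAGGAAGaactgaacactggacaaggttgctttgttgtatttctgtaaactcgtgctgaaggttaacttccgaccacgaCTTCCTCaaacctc
GAGGAAG begins 85 bases before the start of Elane and 216 before that of Ctsg. In Fcrl1 it begins 93 bases before the start and, in the reverse orientation, 14 bases before it. The RUNX motif TGTGGT, also in capitals, begins 79 bases before the start of Ctsg in the reverse orientation. Of the 91 genes lower in LT-HSC 66 had a window, and GAGGAAG was in 17 of them (25.8%, against 10.4% of all windows), TGTGGT in 15 (22.7%, against 14.2%) and AGATAA in 3 (4.55%, against 10.3%). The windows of Flt3, Ccr9 and Il7r held none of the 3 motifs. Among the genes higher in LT-HSC the share with GAGGAAG was 25%. The shares of all windows again include genes not tested here, and no test was made of these shares.

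Several of the largest differences belonged to genes on no lineage list. Cdh17, a cadherin best known from the intestine, was at 6.42, 5.73 and 5.61 in LT-HSC and at 9.09, 8.93 and 9.12 in ST-HSC. Its difference of -3.13 ± 0.19 (8.73-fold) had the smallest p of all genes (limma, adjusted p = 1.2e-07). Tlr7, the endosomal receptor of single-stranded RNA, was at 7.25, 6.10 and 6.05 against 9.60, 9.40 and 9.52, a difference of -3.04 ± 0.35 (8.21-fold, adjusted p = 0.000149). LT-HSC a was the highest LT-HSC array for both genes, still far below ST-HSC. Stc1, the secreted hormone stanniocalcin 1, was at 7.21, 7.07 and 7.03 against 9.33, 10.14 and 9.84, a difference of -2.67 ± 0.21 (6.34-fold).

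Pirb, an inhibitory receptor for class I MHC, was at 7.90, 7.26 and 7.32 in LT-HSC and at 9.87, 9.64 and 9.92 in ST-HSC, a difference of -2.31 ± 0.26 (4.97-fold, adjusted p = 0.000149). Its close relative Gm15448 had a difference of -0.69, and probes may not tell the members of this family apart. Atp8b4, a putative lipid flippase, was at 5.65, 5.61 and 6.98 against 7.95, 8.66 and 8.77, with LT-HSC c apart from a and b, and differed by -2.38 ± 0.46 (adjusted p = 0.0221). Pld4, an exonuclease of endolysosomes, was at 8.66, 8.09 and 8.26 against 10.12, 9.97 and 10.14, a difference of -1.74 ± 0.26 (3.34-fold). St8sia1, the sialyltransferase that makes the ganglioside GD3, differed by -1.72 ± 0.17 (3.29-fold), and BC035044 by -1.89 ± 0.25.

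Further genes with large differences were a chemokine, a surface antigen and a signalling regulator. The chemokine Ccl3 was at 6.43, 6.35 and 6.47 in LT-HSC and at 8.21, 8.62 and 8.18 in ST-HSC, a difference of -1.92 ± 0.17 (3.78-fold, limma, adjusted p = 5.82e-06). Cd69, the early activation antigen of lymphocytes, was at 6.46, 6.41 and 7.32 against 8.72, 8.24 and 8.50, a difference of -1.76 ± 0.23. Rgs1, a brake on G protein signalling, was at 5.39, 6.01 and 5.38 against 7.75, 7.43 and 7.15, a difference of -1.85 ± 0.30. Immediate early genes, which rise with handling of cells, were not called: of 31 none passed, with a median of -0.13. At an unadjusted p under 0.05 (limma) 3 of them were lower, against 8.76% of all genes in either direction. Fos was at 7.84, 7.62 and 7.81 against 8.32, 8.0 and 8.50, and Junb at 9.40, 8.36 and 9.75 against 9.63, 9.65 and 10.01. Whether these small shifts take part in the differences of Ccl3, Cd69 and Rgs1 was not tested.

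Of 40 measured interferon response genes 4 were called lower in LT-HSC and none higher, against 0.467% and 0.0923% of all genes. The 4 were Irf7, Oasl1, Ifi27 and Rtp4. In 24 of 40 LT-HSC lay below ST-HSC without overlap (6.75% of all genes did), in none above, and 39 of 40 differences were below 0, as were 46.2% of all genes. The median was -0.35, and the list mean was 8.58, 8.62 and 8.64 in LT-HSC and 8.96, 9.05 and 8.99 in ST-HSC. In FL MPP the list mean was 8.61 to 8.66, the level of LT-HSC. The count was 2 without FL LT-HSC b and 6 without BM LT-HSC c, while calls lower over all genes went from 91 to 52 and 196.

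Irf7, the factor that amplifies the type I interferon response, was at 8.09, 7.37 and 8.18 against 9.06, 9.20 and 8.74, a difference of -1.12 ± 0.22 (2.18-fold, limma, adjusted p = 0.0211). Ifi27 was tighter, at 8.17, 8.10 and 8.10 against 9.08, 9.15 and 8.96, a difference of -0.94 ± 0.12 (adjusted p = 0.00043). Oasl1, of the oligoadenylate synthetase family, and Rtp4 differed by -1.06 ± 0.18 and -0.82 ± 0.13 (adjusted p = 0.00657 and 0.00442). Irf7 and Oasl1 had means of 7.98 and 7.20 in FL MPP, below ST-HSC, whereas Ifi27 was at 9.28 there. Oas2, Isg15 and Irf9, at -0.76 ± 0.18, -0.60 ± 0.15 and -0.50 ± 0.13, did not pass (adjusted p = 0.0855, 0.125 and 0.119). Ifit1 and Mx1, classic members, differed by -0.04 and 0.17. Sting1, the adaptor of cytosolic DNA sensing, fell, with a difference of -0.67 ± 0.15 (adjusted p = 0.0445).

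Antigen presentation genes had a median of -0.19 over 20 members. H2-Oa, a modulator of class II peptide loading, was the only list member called, at 8.58, 8.20 and 8.31 against 9.09, 9.12 and 8.81 (difference -0.64 ± 0.14, adjusted p = 0.0388). Without FL LT-HSC b its adjusted p was 0.212 and no list member was called, and without BM LT-HSC c 2 were. H2-DMb2, on no list and nearly identical to H2-DMb1, fell as well, with a difference of -1.15 ± 0.18 against -0.37 ± 0.15 for H2-DMb1, and the probes of this pair may not tell the copies apart. The class II genes H2-Aa, H2-Ab1 and H2-Eb1 differed by 0.06, 0.02 and 0.31 and their regulator Ciita by 0.05. The Gimap GTPases of lymphocytes had a median of -0.40 over 8 members, all with differences below 0 (46.2% of all genes) and 5 without overlap (6.75% of all genes). None of the 8 was called, and 3 were lower at an unadjusted p under 0.05 (limma), which 8.76% of all genes reached.

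**Figure D3:**
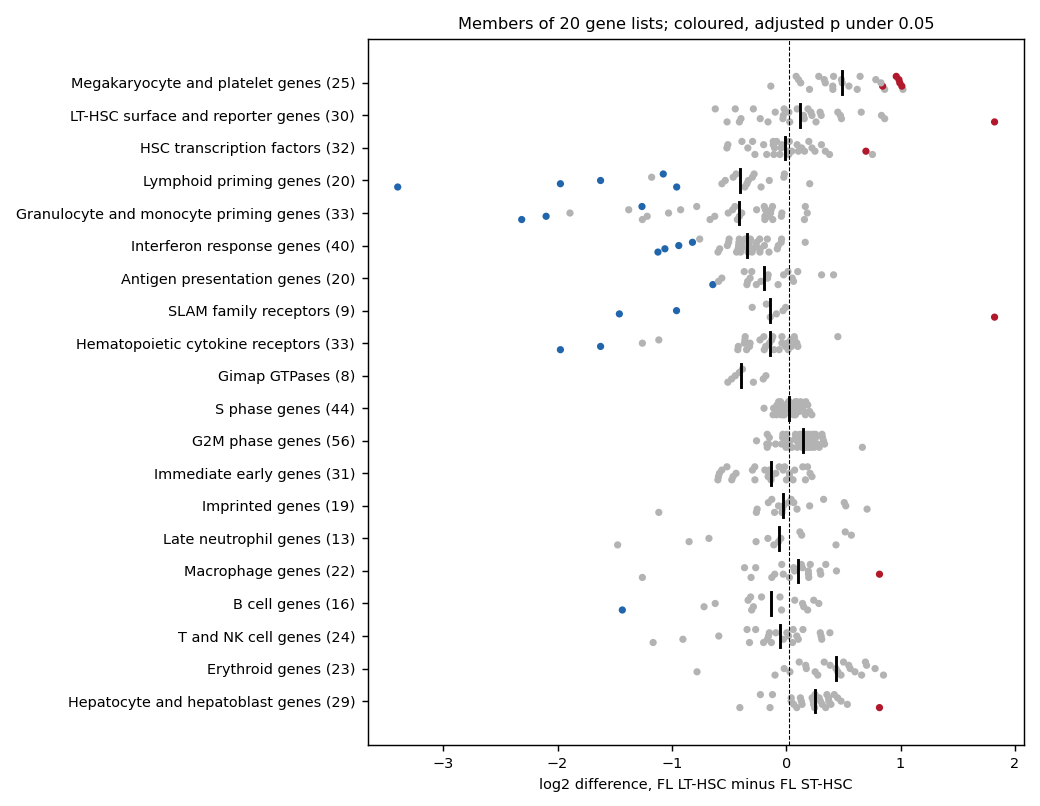
Each point is a member of a gene list, placed by its log2 difference of FL LT-HSC minus FL ST-HSC; black bars are list medians, the dashed line is the median of all genes, and numbers in brackets are the members measured. The megakaryocyte list lies to the right with a median of 0.49, the lymphoid, granulocyte and interferon lists to the left with medians of -0.40, -0.41 and -0.35, and the S phase list is centred at 0.03.

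Hepatocyte transcripts varied more between arrays than between populations. The hepatocyte list mean was 7.63, 7.75 and 8.60 in LT-HSC and 7.77, 8.10 and 7.45 in ST-HSC, so the array with the most and the array with the least liver transcript sat in different populations. Afp, alpha-fetoprotein of hepatoblasts, was at 7.97, 8.62 and 11.16 against 9.09, 10.17 and 7.43. Of the 29 members 25 had differences above 0, as did 53.8% of all genes, with a median of 0.25. At an unadjusted p under 0.05 (limma) 3 were higher and 1 lower, against 8.76% of all genes in either direction. Apoe was the only called gene on that list and among 22 macrophage genes, and without FL LT-HSC b none was called on either. Of 22 stromal genes Postn, a matrix protein, and Pdgfrb, a receptor of mesenchymal cells, fell: Postn was at 8.74, 8.71 and 8.58 against 9.97, 9.66 and 9.97, and Pdgfrb at 6.58, 7.15 and 6.51 against 7.60, 7.70 and 7.66 (adjusted p = 0.0158 and 0.0291). Without FL LT-HSC b 1 stromal gene was called. Col3a1, a collagen of the same cells, had a difference of 0.32 ± 0.23 and did not pass. Pdgfrb had its highest fetal level in MPP, with a mean of 9.80. Of the 42 lists examined 27 held no called gene, with medians from -0.40 for the Gimap genes to 0.43 for the erythroid genes.

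**Figure D4:**
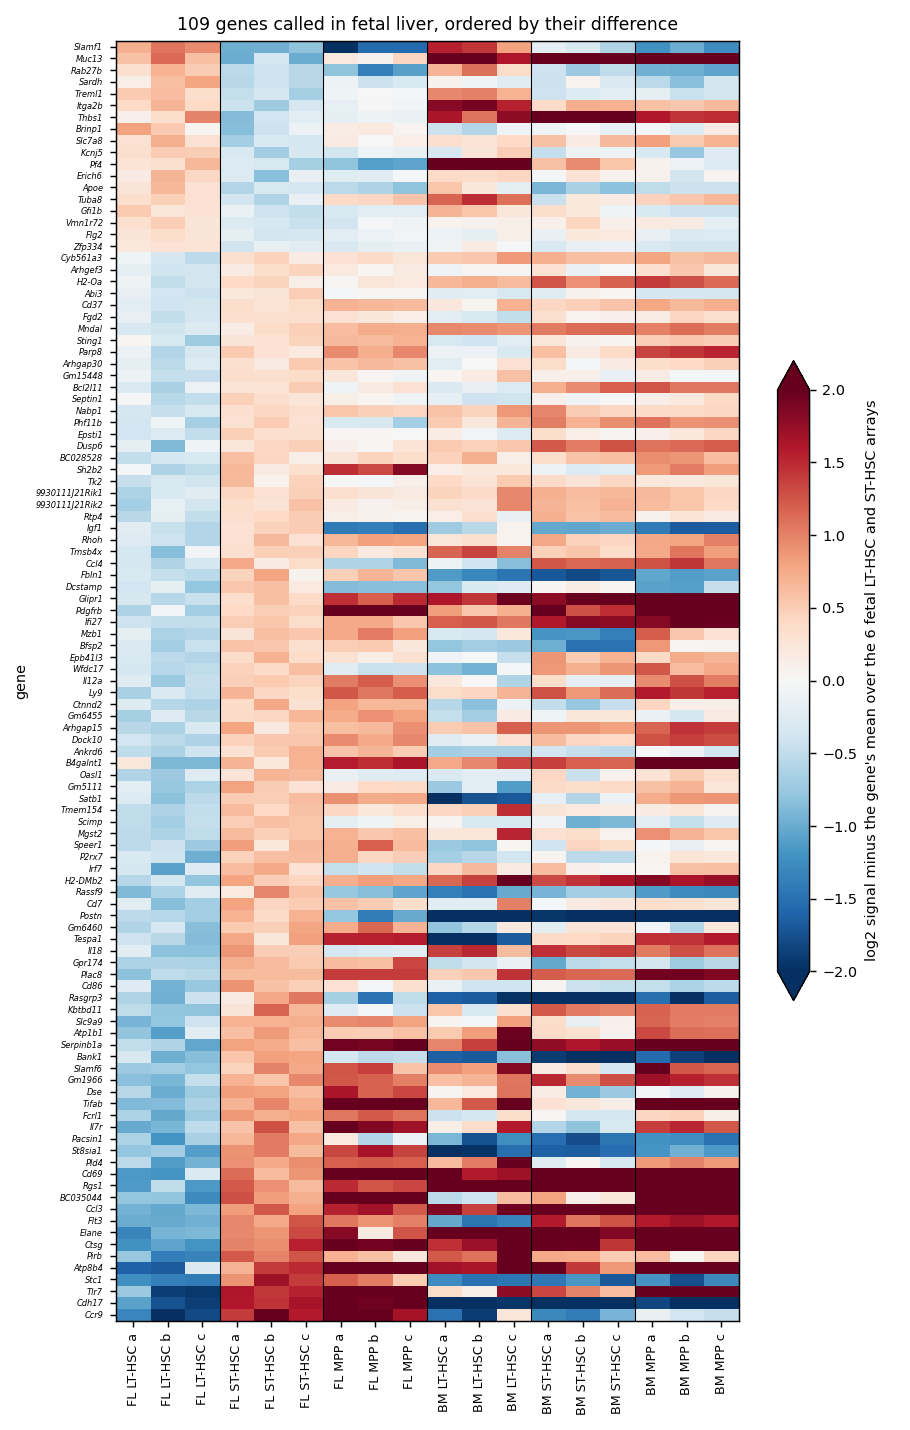
Rows are the 109 called genes ordered by their difference and columns the 18 arrays; colour is the log2 signal minus the gene's mean over the 6 fetal LT-HSC and ST-HSC arrays, cut at 2 in either direction. The first 18 rows are higher in the 3 fetal LT-HSC columns and the other 91 lower, and the adult columns at the right repeat this contrast in only some rows.

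The adult comparison, BM LT-HSC against BM ST-HSC, shares no array with the fetal one and shows which differences recur. In bone marrow 334 genes were called, 1.71% of those tested, 236 of them higher in LT-HSC (1.21%) and 98 lower (0.502%). Of the 18 genes higher in fetal LT-HSC, 7 were also called higher in adult LT-HSC, 1 was called lower and 10 were not called. Slamf1, a sort marker in both tissues, is among the 7 and in the later counts of the 18. Its recurrence reflects the gate and is not a result. Of the 91 genes lower in fetal LT-HSC, 17 were called lower in adult LT-HSC, 5 were called higher and 69 were not called. By sign alone 12 of the 18 were above 0 in bone marrow, as were 50.3% of all genes, and 56 of the 91 were below 0, as were 49.7% of all genes. BM LT-HSC c, the array high in neutrophil and low in stem cell transcripts, weighs on these counts. Without it 812 genes were called in bone marrow (4.16%, with 2.93% higher and 1.23% lower). The counts became 7, 1 and 10 for the 18 and 22, 6 and 63 for the 91.

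The difference between the fetal and the adult comparison was itself tested. It was called at 74 genes (0.379% of those tested), 64 with the fetal difference below the adult one (0.328%) and 10 above (0.0513%). Of the 109 genes called in fetal liver 34 were among them, 31 of the 91 lower and 3 of the 18 higher. Without BM LT-HSC c the count was 517 genes (2.65%), 49 of the 109 among them, and all of the 34 stayed called. The adult arrays weigh on this count: it was 303 without BM ST-HSC a, 137 without BM LT-HSC a and 40 without BM ST-HSC c. It was 47 without FL LT-HSC b, 38 without FL LT-HSC a and FL ST-HSC a, 24 with only the arrays compared and 2159 with array weights.

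Flt3 and Ccl3 were lower in LT-HSC of both tissues. Flt3 was at 7.44, 7.0 and 7.13 in BM LT-HSC and at 10.05, 9.54 and 9.75 in BM ST-HSC, a difference of -2.59 against -1.98 in fetal liver. Ccl3 was at 9.23, 8.74 and 9.32 against 11.65, 11.37 and 11.64, a difference of -2.45. Satb1, Cd69, Rgs1, Ccl4 and Bcl2l11, the latter a trigger of cell death, were also called lower in both, and for none of these 5 was the difference between the tissues called, with adjusted p (limma) from 0.244 for Ccl4 to 0.966 for Rgs1. Tespa1, needed for thymocyte development, was called lower in both and further in the adult, with differences of -1.22 and -2.48 that differed between the tissues (adjusted p = 0.0316). Among the genes higher in LT-HSC, Itga2b, Treml1, Rab27b, Tuba8 and Apoe were called in both tissues, with adult differences of 1.16, 1.19, 1.26, 1.27 and 1.0, as were Slamf1 and Pf4. Itga2b was at 11.02, 11.12 and 10.74 in BM LT-HSC and 9.58, 9.93 and 9.89 in BM ST-HSC.

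Ccr9, Cdh17 and Stc1 separated the populations in fetal liver and not in bone marrow. Cdh17 was at 5.05, 5.12 and 5.54 in BM LT-HSC and 5.20, 5.26 and 5.09 in BM ST-HSC, near the fetal LT-HSC level, and the 2 tissues' differences themselves differed by -3.18 ± 0.28 (limma, adjusted p = 2.44e-05). Ccr9 was at 6.37, 5.96 and 8.10 against 6.56, 6.46 and 6.93, and the tissues differed by -3.56 ± 0.52 (adjusted p = 0.00403), or -2.91 without BM LT-HSC c. Stc1 was at 7.17, 6.94 and 7.0 against 7.01, 7.27 and 6.74, and the tissues differed by -2.70 ± 0.30 (adjusted p = 0.000493), or -2.72 without that array. Tlr7 was between these cases: it was high in BM ST-HSC too, at 9.32, 8.98 and 8.61, and in BM LT-HSC at 8.35, 8.11 and 9.78. Its adult difference was -0.22 with BM LT-HSC c and -0.74 without it, neither of them called.

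Pld4, Il7r, Tifab, Mzb1 and Tmsb4x were called lower in fetal LT-HSC and higher in adult LT-HSC. Il7r was at 7.27, 7.51 and 8.74 in BM LT-HSC and 6.56, 6.35 and 6.84 in BM ST-HSC, an adult difference of 1.26 (adjusted p = 0.0321) that was 0.81 without BM LT-HSC c (adjusted p = 0.0394), against -1.62 in fetal liver. Pld4 was at 9.84, 10.23 and 11.41 against 8.96, 9.24 and 8.90, an adult difference of 1.46, or 1.0 without BM LT-HSC c, against -1.74. Tifab, a relative of a signalling adaptor of Toll-like receptors, was at 8.19, 8.76 and 9.72 against 7.82, 7.76 and 7.65, an adult difference of 1.15, or 0.73 without BM LT-HSC c, against -1.58. The adult differences of Elane and Ctsg, 0.36 and 0.41, became 0.03 and -0.30 without BM LT-HSC c, in which they were at 12.96 and 11.41. The tissues still differed for both without that array, by -2.13 for Elane (adjusted p = 0.0137) and -2.01 for Ctsg (adjusted p = 0.00489). The means over the granulocyte and monocyte priming list were 9.45, 9.53 and 10.71 in BM LT-HSC and 9.26 to 9.44 in BM ST-HSC.

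Among the genes higher in fetal LT-HSC, Muc13, Thbs1 and Pf4 differed between the tissues. Muc13 was at 11.80, 11.78 and 11.09 in BM LT-HSC and 11.77, 11.74 and 11.74 in BM ST-HSC, above every fetal array, with an adult difference of -0.19 that was not called. Thbs1 had the opposite sign in bone marrow, at 9.21, 8.66 and 9.35 against 9.97, 10.07 and 9.99 (adult difference -0.94, adjusted p = 0.0291). Pf4 went the same way in both tissues and further in the adult, at 12.03, 12.25 and 11.96 against 9.84, 10.20 and 9.80, and the tissues differed by -1.29 ± 0.22 (adjusted p = 0.0106). The megakaryocyte list had an adult median of 1.05, or 0.96 without BM LT-HSC c, with list means of 9.34 to 9.46 in BM LT-HSC and 8.42 to 8.53 in BM ST-HSC. The list means of the interferon genes overlapped between the adult populations, at 9.26, 9.28 and 9.0 in BM LT-HSC and 9.32, 9.19 and 9.20 in BM ST-HSC.

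**Figure D5:**
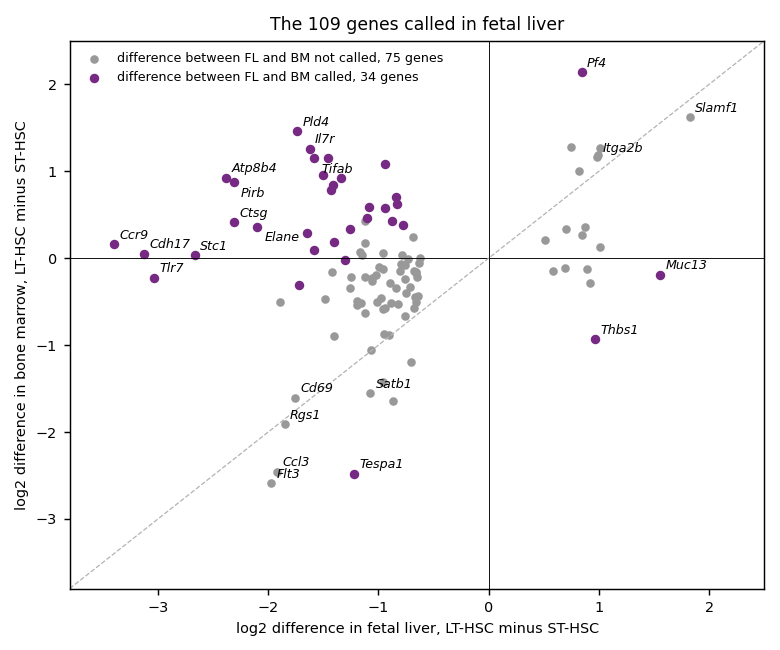
Each point is a gene called in fetal liver, with its log2 difference of LT-HSC minus ST-HSC in fetal liver on the horizontal axis and in bone marrow on the vertical axis; purple points are the 34 genes whose difference between the tissues was called. Flt3, Ccl3, Rgs1 and Cd69 lie near the dashed line of equal differences, while Ccr9, Cdh17 and Stc1 lie near an adult difference of 0 and Pld4 and Il7r above it.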

How the data were processed

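RNA of sorted mouse cells was hybridised to 18 Clariom S arrays (Affymetrix), 6 groups of 3, and samples were grouped by title, source name and cell type. The authors deposited log2 values per probe set; per the submitters' processing notes they were made with oligo in R 3.5.01, and how background, normalization and summarization were handled is not given in the sources used here. Labelling started from 2 ng of RNA with 10 PCR cycles, per the labels' protocols.

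Of 22203 probe sets 19572 matched 1 gene symbol, all of them found in the RefSeq table of GRCm38.p6. The 2631 with none or several were left out, and the probe set with the highest mean stood for each of 19505 genes (67 others were set aside). The deposited values were used as they are. A model of 6 group means over all 18 arrays was fitted by lmFit and eBayes (limma 3.58.1, R 4.3.3), with Benjamini-Hochberg adjustment over all genes and a threshold of 0.05, and the script was tested on simulated data. The difference of the fetal and the adult contrast was tested in the same model. Precision is limited by the 3 arrays of a group, and the standard errors had a median of 0.17 for a difference and 0.24 for the difference between tissues.

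The comparison and the gene lists were chosen with earlier results of these data known. Genes were named by a rule: the 15 called genes with the largest difference in each direction, from each list its 6 largest differences and, where no more than 6 members were called, those, the sort markers and sex-linked genes, and for the difference between tissues the 5 called genes with the largest value in each direction. Other genes (such as Vmn1r72, Fgd5, Mecom, Mpo, Spi1, Fcrl1, Serpinb1a, Sting1, Tespa1 and the dendritic cell genes) and the 3 promoter motifs were chosen after values were seen. Paralogs and predicted genes (Pirb and Gm15448, 9930111J21Rik1 and 9930111J21Rik2, Speer1) are uncertain, since probes can bind several copies. Alternatives covered scaling, low signals, probe set choice, the samples fitted, variance settings, blocks and left-out arrays.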

Additional observations from a re-analysis of the deposited data

Results flagged for a closer look

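The difference between LT-HSC and ST-HSC was not the same in fetal liver and bone marrow for 74 genes (limma, test of the difference between the tissues, adjusted p under 0.05). Values here are the fetal difference minus the adult difference on the log2 scale. Among genes lower in fetal LT-HSC this was -3.56 for Ccr9, -3.30 for Atp8b4, -3.20 for Pld4, -3.19 for Pirb, -3.18 for Cdh17, -2.88 for Il7r and -2.81 for Tlr7. It was -2.73 for Ctsg, -2.70 for Stc1, -2.61 for Slamf6, -2.46 for Elane, -2.22 for Bank1 and -1.41 for St8sia1.

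For genes not called in fetal liver the value was -2.67 for Csf1r, -2.61 for Fcgr3, -2.24 for Cavin2, -2.20 for Id2, -1.98 for Ebf1, -1.86 for Id3, -1.50 for Kdr and -1.14 for Ramp2. Cavin2 was at 9.58, 9.81 and 8.49 in BM LT-HSC and at 5.75, 6.06 and 6.29 in BM ST-HSC, while its fetal arrays lay between 6.00 and 7.41. Kdr, an endothelial growth factor receptor, had an adult difference of 2.10, or 2.15 without BM LT-HSC c.

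Values above 0 were found for Cd34 (1.07), Clnk (2.00), Lmo7 (2.33) and Dntt (2.42), none of them called in fetal liver, and for Muc13 (1.74) and Thbs1 (1.90), called higher there. Dntt was at 5.91, 6.09 and 7.83 in BM LT-HSC and at 9.40, 8.42 and 8.67 in BM ST-HSC. Cd34 was at 10.79, 10.63 and 10.34 against 12.01, 11.96 and 12.00. Pf4 was at -1.29, with the same sign in both tissues. BM LT-HSC c enters all of these values: without it the value was -2.01 for Ctsg, -1.99 for Fcgr3, 3.03 for Dntt and -2.91 for Ccr9, and each of these 4 stayed called.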

How the results depend on the processing

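The fetal comparison was refitted under 27 alternatives. Those that leave out an adult array or the arrays of narrow spread, or centre the arrays without FL LT-HSC b, were chosen after seeing the data. No called gene changed sign in any, which is no sign of stability where arrays were only left out or reweighted. There the lack of overlap at every called gene fixed the sign. Called in all were 16 genes. Because 1 alternative asks for an absolute difference of at least 1, calls of smaller size could not be among these 16. Leaving out each fetal array in turn gave 58 (FL LT-HSC b) to 92 calls, 6 to 14 higher and 52 to 78 lower, and 47 to 77 genes with a difference between tissues; fewer arrays were fitted. Without each adult array there were 85 to 232 calls, 11 to 36 higher and 74 to 196 lower, and 40 to 517 tissue differences. The lowest of these counts came without BM ST-HSC c and the highest without BM LT-HSC c. Without FL LT-HSC a and FL ST-HSC a (described with an Ezh2 guide) 45 genes were called, 5 higher and 40 lower, and 38 between tissues. Without FL ST-HSC b and c, which leaves a lone ST-HSC array assumed to vary like the other groups, the counts were 20, 3, 17 and 7 in the same order. Without the 4 arrays of narrow spread (FL LT-HSC b, BM LT-HSC c, BM ST-HSC b and c) they were 211, 51 and 160 in fetal liver, and centring without FL LT-HSC b gave 62, 9, 53 and 44 between tissues. Array weights gave 180, 32, 148 and 2159, and the cause was not tested. A fit on only the arrays compared called 24 genes between tissues. Of the called genes 54 differed by 1 or more, 4 higher and 50 lower.

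Arrays of the same letter did not deviate together (correlations 0.10, -0.12 and 0.00 for a, b and c). Effects of single arrays enter these correlations, so they cannot tell whether a letter marks a shared source. The main fit used no pairing. With the letter as a replicate block 94 genes were called, 12 higher and 82 lower, with 61 between tissues. A random block gave 113.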

Other observations

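Further genes called lower in fetal LT-HSC fell into groups that were chosen after their values were seen, so their counts carry no weight. St8sia1 and B4galnt1, which act in ganglioside synthesis, had differences of -1.72 and -1.05. Il18 and Il12a, cytokines of myeloid cells, were at -1.25 and -0.96, Cd86, a costimulatory ligand, at -1.30, and P2rx7, an ATP receptor, at -1.12. Igf1 and Fbln1 were at -0.84 and -0.88.

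Tlr7, Pld4 and Irf7 are also known from plasmacytoid dendritic cells, and 11 further genes of dendritic cells were looked up for that reason. None was called (limma). Siglech was at 6.85, 7.10 and 6.55 in LT-HSC and at 7.15, 6.84 and 6.94 in ST-HSC, and Spib had a difference of -0.01. Tcf4, Tlr9, Bst2 and Cox6a2 had differences of -0.44, -0.48, -0.32 and -0.22. In each of these LT-HSC lay below ST-HSC without overlap (6.75% of all genes did). Irf8, Itgax, Xcr1, Clec9a and Zbtb46 lay between 0.13 and 0.32. For Irf8 and Zbtb46 LT-HSC lay above without overlap (8.75% of all genes did).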
